A study of Mus musculus with 12 samples.

Results

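The genes described here are 10 components of the G1 phase of the cell cycle, chosen by symbol from a written list: the D cyclins Ccnd1, Ccnd2, and Ccnd3, the kinases Cdk4 and Cdk6, the E cyclins Ccne1 and Ccne2, and the inhibitor genes Cdkn2a, Cdkn2b, and Cdkn1b. All 10 were found among the 24421 gene symbols of the count files, and all 10 passed the filter on low counts in each comparison. RNA-seq of poly(A) RNA had been performed on 6 liver tumors and on non-tumoral liver of the same 6 aged mice, all fed a standard diet. In 4 p21+/Tert mice, Tert was placed under the p21 (Cdkn1a) promoter, and in 2 p21+/TertCi mice the same promoter drove a catalytically inactive Tert. The study also reports RNA-seq of further p21+/TertCi tumors and of a neoplasm from a WT mouse, which are not among the libraries used here. No liver without a transgene was analysed here, so both tissues of each mouse carry the p21-driven allele, which is transcribed where that promoter is active rather than in 1 cell type. By the mutations the study lists, T-HCC662 and T-HCC663 carried Ctnnb1 mutations, T-HCC941 an Egfr mutation, TCi-HCC981 an Hras mutation, and T-HCA992 and TCi-HCA984 none of these. Its copy number calls also placed a loss over Cdkn2a and Cdkn2b in T-HCC662 and TCi-HCC981. Each tumor is named with the number of its mouse, and the liver of the same mouse is written NT with that number (NT662, NT663, NT941, and NT992 in p21+/Tert mice, NT981 and NT984 in p21+/TertCi mice). NT662 carries another animal number in its label and was assigned by elimination.

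D cyclins accumulate in response to growth signals and activate Cdk4 and Cdk6, which phosphorylate the retinoblastoma protein and release E2F factors. E2F factors then induce the E cyclins, which activate Cdk2 and commit the cell to S phase. The INK4 proteins encoded by Cdkn2a and Cdkn2b bind Cdk4 and Cdk6, p27 encoded by Cdkn1b inhibits Cdk2 complexes, and most hepatocytes of an adult liver rest outside this cycle.

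Each library had between 14571716 and 26170661 reads counted on genes. CPM below stands for counts per 1000000 reads of the library size after TMM scaling, a value after ± beside a log2 fold change is its SE, and a gene was called where its adjusted p in edgeR was under 0.05. Tert, the gene of the transgenes, had 10.7 to 17.5 CPM in the livers and 4.64 to 26.2 CPM in the tumors, and since both alleles carry Tert sequence, this does not tell the genotypes apart. The 8 hepatocyte markers were detected in all libraries, with a summed level of 34036 to 57621 CPM in livers and of 15809 CPM in T-HCC663 to 93990 CPM in T-HCC941 among the tumors. Taken singly, only 2 of the 8 had a positive log2 fold change in tumors against livers. Their median was -0.91, and 2 of the 8 were called lower. The 6 macrophage markers summed to 1320 CPM in NT981 and 955 CPM in TCi-HCC981, against at most 558 CPM in any other library.

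In the 6 tumors against the 6 livers, 4 of the 10 genes were called higher and none lower. They were the D cyclin Ccnd1, the E cyclin Ccne1, and the INK4 genes Cdkn2a and Cdkn2b. Of 13822 genes tested, 6.77% were called higher and 3.91% lower. The median log2 fold change of the 10 genes was 1.11, and that of all genes tested was 0.01. The other 6 genes had log2 fold changes from -0.25 (Cdkn1b) to 1.27 (Cdk6). In tissue RNA of this kind, a smaller number of cells of a type and less RNA per cell cannot be told apart. Each library of a tissue came from another mouse, and the main fits did not pair the tumor with the liver of its mouse. Their p-values thus measure the spread between mice within groups. In the comparisons within or between genotypes and between driver classes, that spread was estimated jointly over the groups of all 12 libraries. It is therefore not that of the 2 libraries of a small group alone.

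**Figure D1:**
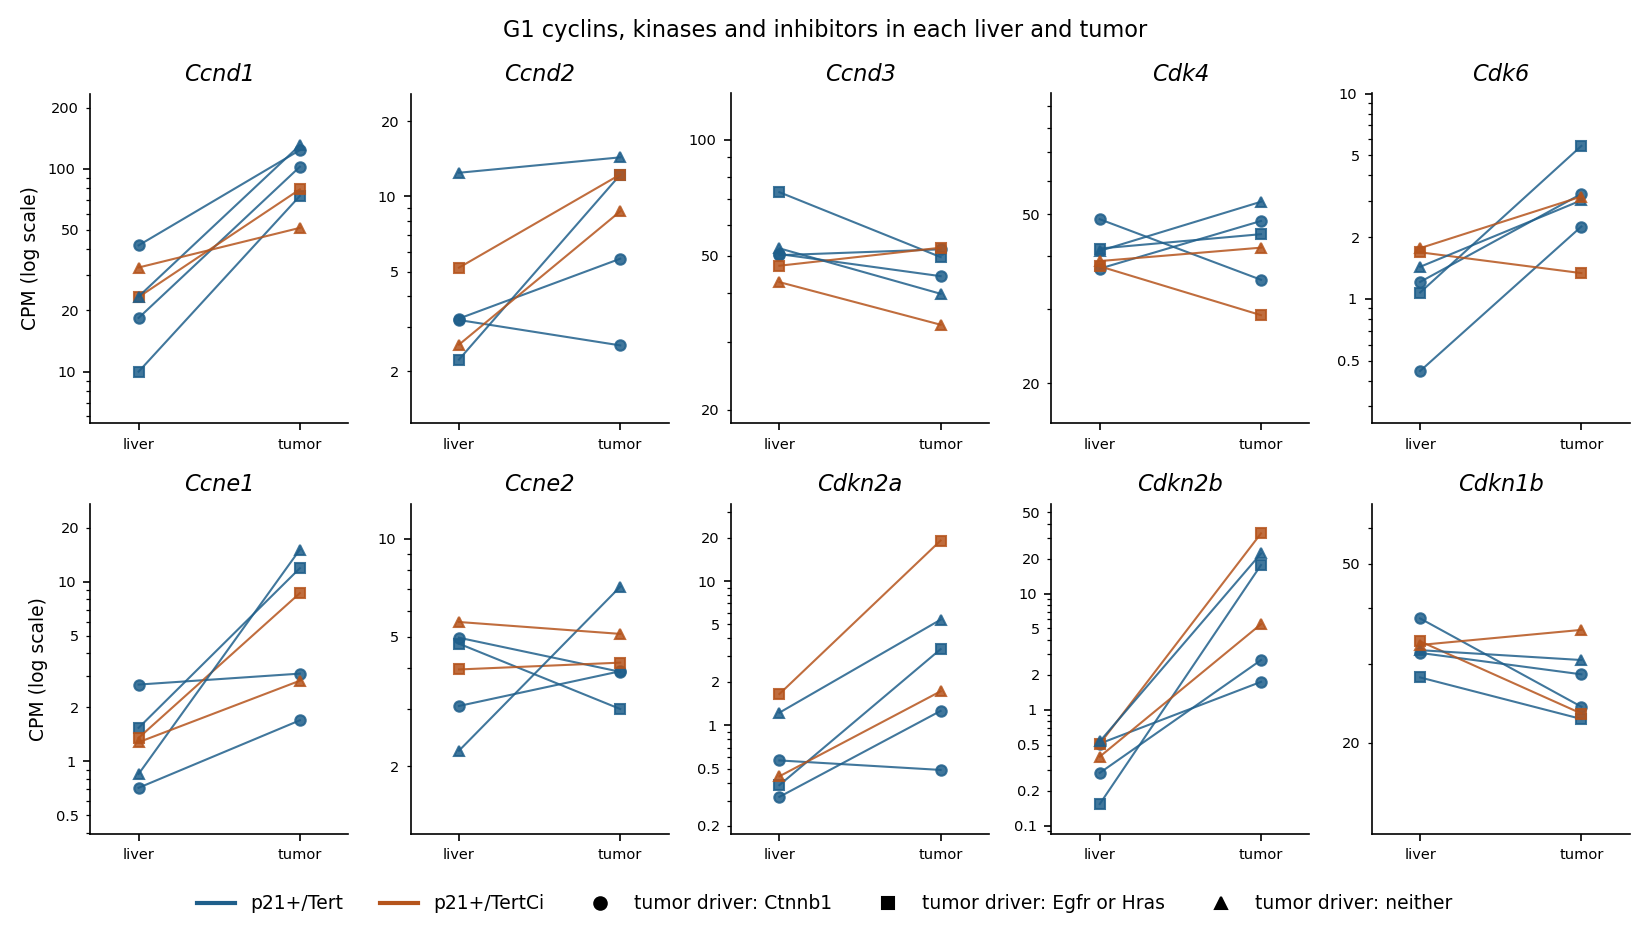
CPM (log scale, range differing between panels) of each G1 gene in the liver and the tumor of each mouse, with lines joining the tissues of 1 mouse, colors for genotype, and symbols for the driver class of the tumor. All 6 tumors lie above all 6 livers for Ccnd1 (51.1 CPM or more against 41.9 CPM or less) and Cdkn2b (1.73 CPM or more against 0.531 CPM or less). The lines of Ccne1 also rise in all 6 mice. Those of Ccnd2, Ccnd3, Cdk4, Cdk6, Ccne2, Cdkn2a, and Cdkn1b run in both directions.

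Cyclin D1, encoded by Ccnd1 (ENSMUSG00000070348.5, chr7:144929931-144939925 on GRCm38), is the D cyclin that mitogens induce in hepatocytes. Its level in the livers was lowest at 9.98 CPM (NT941), had a median of 23.4 CPM, and was highest at 41.9 CPM (NT663). In the tumors it was lowest at 51.1 CPM (TCi-HCA984), had a median of 90.7 CPM, and was highest at 131 CPM (T-HCA992). The groups did not overlap, and such a separation with tumors above livers was found in 2.86% of the genes tested and the opposite, seen in none of the 10 genes, in 2.24%. Expressed on the log2 scale, the tumors differed from the livers by 1.90 ± 0.32 (edgeR, adjusted p = 0.00361), with a 95% confidence interval from 1.21 to 2.60, and Ccnd1 was called with any single library left out. Against the liver of its own mouse, the tumor level was 1.57 times as high in TCi-HCA984 and between 2.95 times (T-HCC663) and 7.35 times (T-HCC941) as high in the other 5.

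Cyclin D2 (Ccnd2) and cyclin D3 (Ccnd3) activate the same kinases. Ccnd2 ranged from 2.23 to 12.4 CPM in the livers (median 3.23) and from 2.54 to 14.3 CPM in the tumors (median 10.5). NT992 stood far above the other livers, which had at most 5.19 CPM, and it also had the highest summed level of the 5 B cell markers, 41.8 CPM against 0.786 to 17.8 CPM in all other libraries. The part of B cells in that value was not tested. The log2 fold change of Ccnd2 was 0.94 ± 0.49 (edgeR, adjusted p = 0.24), and without that liver it was 1.51 (adjusted p = 0.046), the only call of Ccnd2 in 12 fits with 1 library left out, whose adjusted p reached 0.387. Ccnd3 had 42.8 to 73.1 CPM in livers and 33.2 to 52.5 CPM in tumors. Its log2 fold change was -0.22 ± 0.16 (edgeR, adjusted p = 0.42).

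The makeup of the D cyclin mRNA differed between tissues when levels were expressed per kilobase of exon. Ccnd1 made up 8.12% to 34.8% of the summed D cyclin level in the livers (median 22.5%) and 47.0% to 65.4% in the tumors (median 53.8%). Ccnd3 made up 63.7% to 90.9% in the livers and 30.6% to 48.6% in the tumors. The ranges of both shares did not overlap, and Ccnd1 accounted for more of the level than Ccnd3 in 4 of 6 tumors (not in T-HCC941 and TCi-HCC981) and in 0 of 6 livers. The summed level of the 3 genes was 26.1 to 32.9 CPM per kb in livers and 28.5 to 55.1 CPM per kb in tumors, with TCi-HCA984 the lowest tumor. Ccnd2 contributed at most 6.28% in any library.

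**Figure D2:**
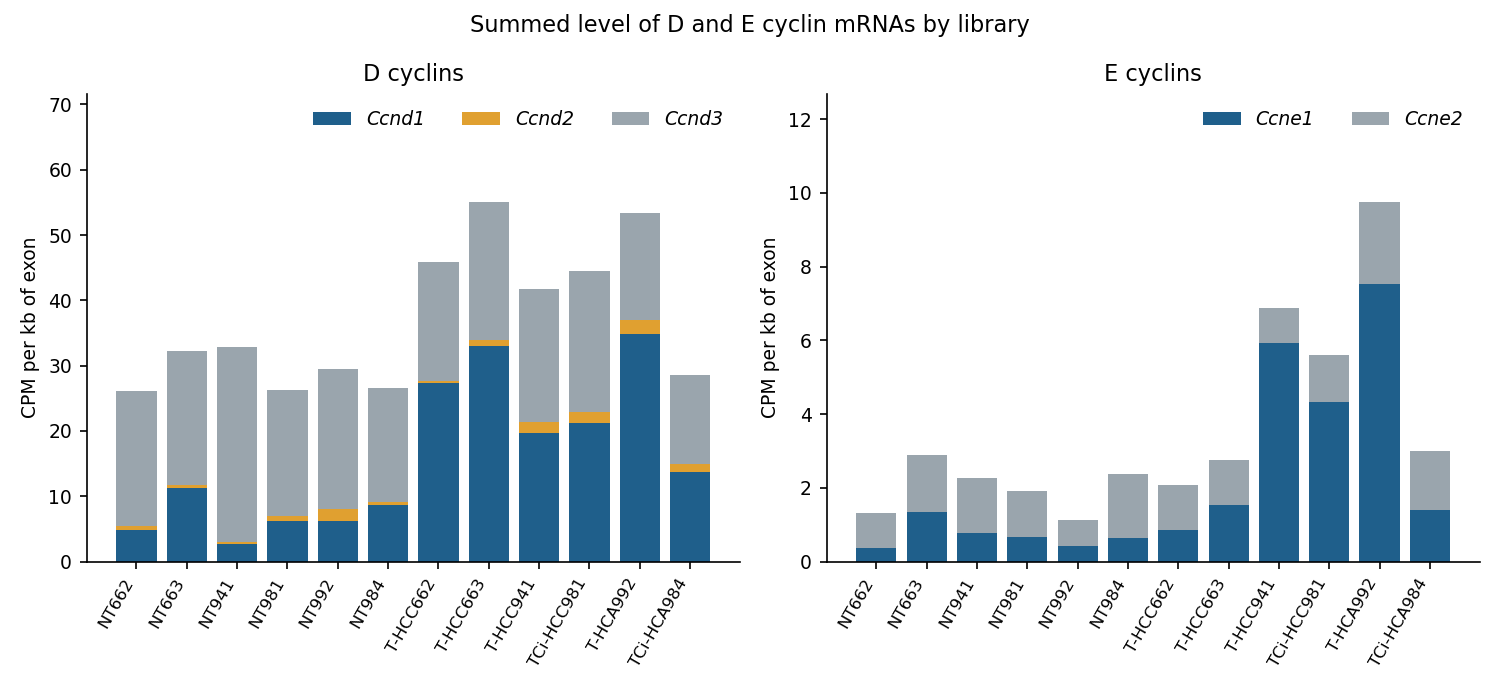
Stacked levels of the D cyclins (left) and the E cyclins (right) in each library, in CPM per kilobase of exon, without error bars because each bar is 1 library. Ccnd1 takes 47.0% or more of the D cyclin level in every tumor and 34.8% or less in every liver, and the E cyclin bars exceed all livers in T-HCC941, TCi-HCC981, T-HCA992, and TCi-HCA984.

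Cdk4 and Cdk6 encode the kinases that D cyclins activate. Cdk4 had 37.3 to 48.7 CPM in livers and 28.9 to 53.6 CPM in tumors, with a log2 fold change of 0.04 ± 0.15 (edgeR, adjusted p = 0.89) and a 95% confidence interval from -0.29 to 0.38. Cdk6 had 0.446 to 1.77 CPM in livers (median 1.32) and 1.34 to 5.57 CPM in tumors (median 3.09). Every tumor except TCi-HCC981 exceeded the highest liver. The log2 fold change of Cdk6 was 1.27 ± 0.39 with an adjusted p of 0.0542 in edgeR, and of 0.0115 in DESeq2. With 1 library left out, Cdk6 was called in 1 of 12 edgeR fits (without TCi-HCC981), and the adjusted p ranged from 0.0359 to 0.131 and the log2 fold change from 1.03 to 1.43. In an edgeR fit without both NT981 and TCi-HCC981, chosen after seeing the data, its log2 fold change was 1.53 (adjusted p = 0.0398). Per kilobase of exon, Cdk6 gave 0.163% to 0.805% of the summed level of both kinases in livers and 0.816% to 2.16% in tumors. Cdk4 transcripts thus made up at least 97.8% of that level in every library.

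The E cyclins encoded by Ccne1 and Ccne2 activate Cdk2. Ccne1 (ENSMUSG00000002068.16, chr7:38097984-38107534) had 0.712 to 2.67 CPM in livers, with a median of 1.31 CPM, which corresponds to 10 to 42 reads. In the tumors it was lowest at 1.69 CPM (T-HCC662), had a median of 5.86 CPM, and was highest at 15.1 CPM (T-HCA992). T-HCC941, T-HCA992, and TCi-HCC981 had 8.63 CPM or more and stood clear of all other libraries, whereas T-HCC662 lay within the range of the livers. On the log2 scale the difference was 2.36 ± 0.55 (edgeR, adjusted p = 0.0172), and the tumor exceeded its own liver in 6 of 6 mice, from 1.15 times in T-HCC663 to 17.7 times in T-HCA992. Ccne1 was called with any single library left out, with an adjusted p in edgeR from 0.00654 to 0.0451. Without both NT981 and TCi-HCC981, a fit chosen after seeing the data, its log2 fold change was 2.29 with an adjusted p of 0.0536. A tumor level above the own liver in all 6 mice was found in 10.8% of the genes tested, and among the 10 genes in Ccnd1, Ccne1, and Cdkn2b. A level below the own liver in all 6 mice was found in 11.9% of the genes tested and in none of the 10.

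Ccne2 had 2.23 to 5.55 CPM in livers and 3.00 to 7.13 CPM in tumors, and its log2 fold change was 0.15 ± 0.28 (edgeR, adjusted p = 0.79). Per kilobase of exon, Ccne1 made up 26.9% to 46.3% of the E cyclin level in livers and 40.9% to 86.4% in tumors. The highest shares of Ccne1 belonged to T-HCC941, T-HCA992, and TCi-HCC981.

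The INK4 genes are neighbors on chromosome 4, with 11645 bases between them. Cdkn2b encodes p15, and Cdkn2a encodes p16 together with p19Arf, a stabilizer of p53, from separate first exons. The counts hold 1 value for the symbol Cdkn2a, so transcripts of p16 and p19Arf cannot be told apart. The sequence around their starts is given because both genes were called higher together. Each stretch spans 250 bases before and 50 bases after an annotated start, from RefSeq on GRCm38.p6, and the promoter of Ccne1 is added as that of the cyclin with the largest fold change. The stretches lie on the minus strand at chr4:89310983-89311282 (Cdkn2b), chr4:89294570-89294869 (Cdkn2a, distal start), chr4:89282143-89282442 (Cdkn2a, proximal start), and chr7:38107441-38107740 (Ccne1). Capitals mark matches, on either strand, to the letters TTTCCCGC or TTTGGCGC (E2F), TGACGTCA (CRE), TGANTCA (AP-1), CTTTGA (TCF), and GGGCGG (Sp1).
Cdkn2b: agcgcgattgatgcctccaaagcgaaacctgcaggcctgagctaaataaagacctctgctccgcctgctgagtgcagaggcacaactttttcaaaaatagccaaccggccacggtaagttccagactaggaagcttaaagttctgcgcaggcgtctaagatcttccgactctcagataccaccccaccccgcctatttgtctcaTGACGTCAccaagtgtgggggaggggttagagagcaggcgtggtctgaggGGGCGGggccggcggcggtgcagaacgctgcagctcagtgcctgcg
Cdkn2a distal start: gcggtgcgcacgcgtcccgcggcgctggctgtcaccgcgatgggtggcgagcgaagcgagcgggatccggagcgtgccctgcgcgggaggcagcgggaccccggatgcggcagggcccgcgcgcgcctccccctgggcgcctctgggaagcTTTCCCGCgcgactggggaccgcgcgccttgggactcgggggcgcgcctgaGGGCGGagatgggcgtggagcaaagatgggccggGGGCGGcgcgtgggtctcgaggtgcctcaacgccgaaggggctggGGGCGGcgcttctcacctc
Cdkn2a proximal start: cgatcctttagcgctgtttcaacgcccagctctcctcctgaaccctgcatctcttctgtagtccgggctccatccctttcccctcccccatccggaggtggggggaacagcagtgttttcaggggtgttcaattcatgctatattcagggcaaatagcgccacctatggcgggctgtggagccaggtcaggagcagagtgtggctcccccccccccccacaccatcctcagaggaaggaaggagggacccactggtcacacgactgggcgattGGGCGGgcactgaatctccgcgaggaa
Ccne1: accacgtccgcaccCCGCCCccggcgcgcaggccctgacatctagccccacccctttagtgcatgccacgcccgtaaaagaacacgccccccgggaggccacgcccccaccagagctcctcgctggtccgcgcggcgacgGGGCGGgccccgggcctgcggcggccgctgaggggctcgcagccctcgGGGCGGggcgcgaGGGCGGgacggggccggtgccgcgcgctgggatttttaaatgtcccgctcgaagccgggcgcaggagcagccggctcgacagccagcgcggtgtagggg

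The Cdkn2b stretch held the CRE letters 46 bases before the start and 1 Sp1 match after it. The distal Cdkn2a stretch held the E2F letters TTTCCCGC 99 bases before the start and 3 Sp1 matches, the proximal one held 1 Sp1 match, and the Ccne1 stretch held 4. Of 32851 mouse promoters of the same length, 1.79% held TGACGTCA, 1.07% TTTCCCGC, 0.514% TTTGGCGC, 7.81% TGANTCA, 16.0% CTTTGA, and 35.7% GGGCGG. No match overlapped another, and the matches describe the letters only. Promoter entries were at hand for 7 of the 10 genes, without Ccnd1, Ccnd2, and Ccne2.

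Cdkn2b (ENSMUSG00000073802.5, chr4:89306299-89311039) was scarce in the livers, with 0.285 CPM in NT662, 0.509 CPM in NT663, 0.154 CPM in NT941, 0.531 CPM in NT992, 0.506 CPM in NT981, and 0.393 CPM in NT984. These levels rest on 2 to 12 reads per liver. The tumors T-HCC662 and T-HCC663 had 2.67 and 1.73 CPM of Cdkn2b, T-HCC941 and T-HCA992 17.6 and 22.1 CPM, and TCi-HCC981 and TCi-HCA984 33.0 and 5.45 CPM. All tumors exceeded all livers, and T-HCC941, T-HCA992, and TCi-HCC981 exceeded the other 3 tumors. The log2 fold change was 5.07 ± 0.75 (edgeR, adjusted p = 0.0018), the largest of the 10 genes, with a 95% confidence interval from 3.46 to 6.68. Against its own liver the tumor level was 3.40 times (T-HCC663) to 115 times (T-HCC941) as high, the latter over a liver with 2 reads (95% Poisson interval from 0.0186 to 0.555 CPM, counting error only). Cdkn2b was called with any single library left out.

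Cdkn2a (ENSMUSG00000044303.6, chr4:89274471-89294653) had 0.57 CPM in NT662, 0.318 CPM in NT663, 0.384 CPM in NT941, 1.22 CPM in NT992, 1.65 CPM in NT981, and 0.442 CPM in NT984. The tumors T-HCC662 and T-HCC663 had 0.49 and 1.26 CPM of Cdkn2a, T-HCC941 and T-HCA992 3.37 and 5.40 CPM, and TCi-HCC981 and TCi-HCA984 19.1 and 1.72 CPM. T-HCC662 and T-HCC663 lay within the range of the livers, and TCi-HCC981 stood far above the other tumors. Tumors exceeded livers by 2.74 ± 0.81 on the log2 scale with an adjusted p of 0.0458 in edgeR, and the tumor was higher in 5 of 6 mice. Cdkn2a was called in 4 of 12 fits with 1 library left out, namely without NT981, T-HCC662, T-HCC663, or TCi-HCA984, and the adjusted p of the 12 fits ranged from 0.0187 to 0.131. Without TCi-HCC981 the log2 fold change was 1.65 (adjusted p = 0.131). In the edgeR fit without both NT981 and TCi-HCC981 it was 2.04 (adjusted p = 0.0768), not called. NT981 and TCi-HCC981, highest for Cdkn2a in their tissues, were also the libraries with the most macrophage marker RNA, whose part in this value was not tested.

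Cdkn1b, which encodes the Cdk2 inhibitor p27, had 28.0 to 37.8 CPM in livers and 22.6 to 35.7 CPM in tumors. It was lower in the tumor in 5 of 6 mice, with a log2 fold change of -0.25 ± 0.14 (edgeR, adjusted p = 0.28). Cdkn1a, the p53 target encoding p21 whose promoter drives the transgenes, had 1.64 to 51.8 CPM in livers and 32.6 to 80.4 CPM in tumors, with a log2 fold change of 1.85 ± 0.70 (edgeR, adjusted p = 0.11).

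Per kilobase of exon, the order of mean levels in the livers was Ccnd3 (21.5 ± 4.31 CPM per kb, SD, n = 6), Cdk4 (19.9 ± 2.06), Cdkn1b (7.19 ± 0.702), Ccnd1 (6.67 ± 2.97), Ccne2 (1.28 ± 0.392), Ccnd2 (0.717 ± 0.577), Ccne1 (0.70 ± 0.349), Cdkn2a (0.652 ± 0.463), Cdkn2b (0.285 ± 0.109), and Cdk6 (0.11 ± 0.042). Neighbors in that order overlapped in their ranges except Cdk4 and Cdkn1b, and Ccnd1 and Ccne2. In the tumors Ccnd1 came first (25.0 ± 8.25 CPM per kb, SD, n = 6), ahead of Cdk4 (20.5 ± 4.36) and Ccnd3 (18.5 ± 3.13), whose ranges overlapped with it. Cdkn2b moved to the fourth place (9.90 ± 9.05), with a range from 1.25 CPM per kb in T-HCC663 to 23.7 CPM per kb in TCi-HCC981.

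**Figure D3:**
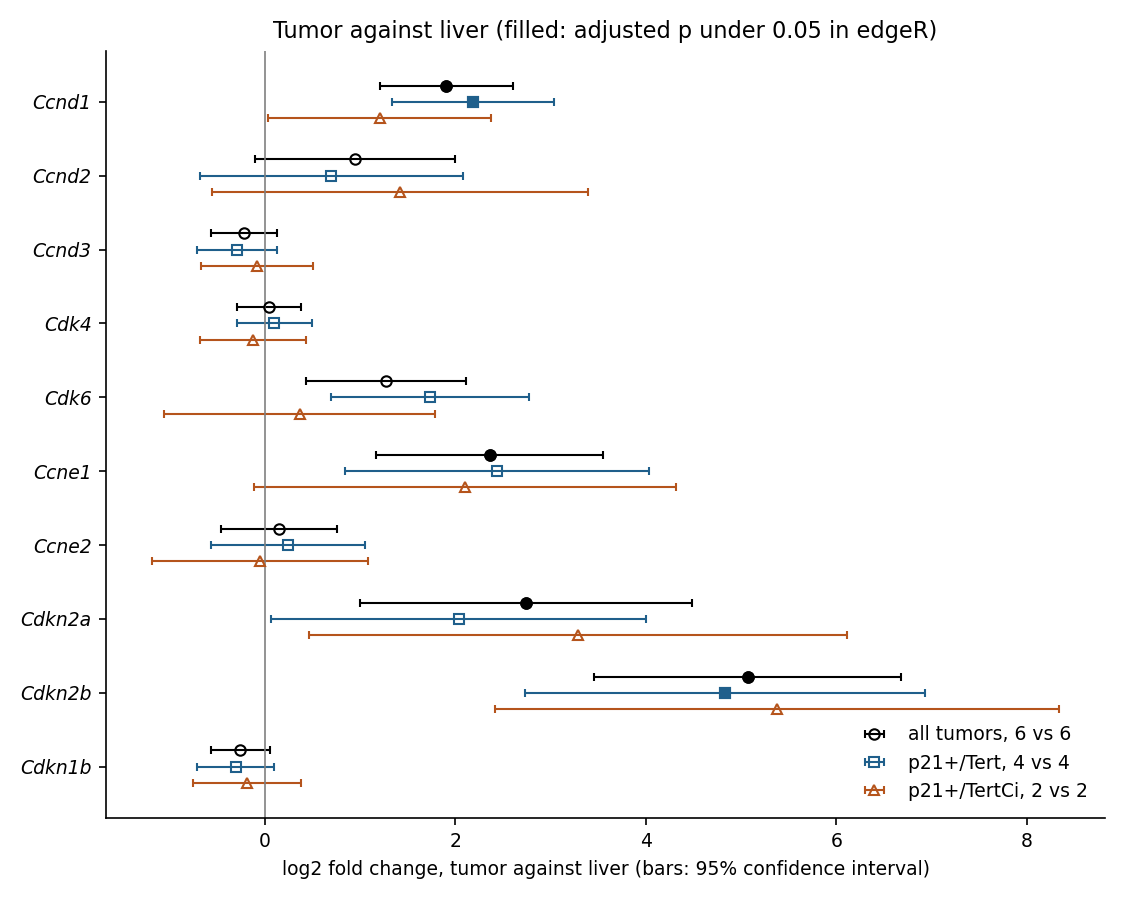
Log2 fold change of each G1 gene in tumors against livers, for all mice (black circles, 6 against 6), p21+/Tert mice (blue squares, 4 against 4), and p21+/TertCi mice (orange triangles, 2 against 2), with 95% confidence intervals and filled symbols for an adjusted p under 0.05. Cdkn2b has the largest value in each set (5.07, 4.83, and 5.38), and filled symbols appear for 4 genes in all mice, 2 in p21+/Tert mice, and 0 in p21+/TertCi mice.

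Within the p21+/Tert mice, Ccnd1 and Cdkn2b were called higher in tumors and no member of the group was called lower. Of 15182 genes tested, 4.2% were called higher and 2.3% lower. Ccnd1 had 18.4, 41.9, 9.98, and 23.4 CPM in NT662, NT663, NT941, and NT992, and 102, 124, 73.4, and 131 CPM in their tumors. Its log2 fold change was 2.19 ± 0.39 (edgeR, adjusted p = 0.0108), and without NT662 the adjusted p was 0.0506. Cdkn2b had a log2 fold change of 4.83 ± 0.95 (edgeR, adjusted p = 0.0162), and the adjusted p lay between 0.0534 and 0.0658 without NT662, NT663, or NT941. Cdk6 had 1.21, 0.446, 1.08, and 1.43 CPM in the livers and 3.25, 2.25, 5.57, and 3.02 CPM in the tumors. Its log2 fold change was 1.74 ± 0.47 (edgeR, adjusted p = 0.0522), and a fit blocked by mouse gave 1.76, with an adjusted p of 0.0445. Ccne1 and Cdkn2a had log2 fold changes of 2.44 (adjusted p = 0.0697) and 2.04 (adjusted p = 0.20). With 1 library left out, Cdk6 was called in 1 of 8 fits (without T-HCC663), with an adjusted p from 0.0496 to 0.132. Ccne1 was called in 1 of 8 (without T-HCC662), with an adjusted p from 0.0309 to 0.194. The remaining genes had log2 fold changes of 0.70 (Ccnd2), 0.25 (Ccne2), 0.10 (Cdk4), -0.29 (Ccnd3), and -0.31 (Cdkn1b), none called.

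Within the p21+/TertCi mice, no gene of the genome was called in edgeR, which makes 0% of 15182 in each direction. At an unadjusted p under 0.05 there were 1618 genes, among them Cdkn2b, Cdkn2a, and Ccnd1, and DESeq2 called 375 genes, including Cdkn2b. Cdkn2b had 0.506 and 0.393 CPM in NT981 and NT984 and 33.0 and 5.45 CPM in their tumors, a log2 fold change of 5.38 ± 1.35 (edgeR, adjusted p = 0.22). Ccnd1 had 23.3 and 32.6 CPM in the livers and 79.1 and 51.1 CPM in the tumors, a log2 fold change of 1.21 ± 0.53 (edgeR, adjusted p = 0.46). Ccne1 had 1.35 and 1.28 CPM in the livers and 8.63 and 2.81 CPM in the tumors. Cdk6 had 1.69 and 1.77 CPM in the livers and 1.34 and 3.15 CPM in the tumors, so that TCi-HCC981 was the only tumor of the 6 below its own liver for this gene. Log2 fold changes were 3.29 for Cdkn2a, 2.10 for Ccne1, 1.42 for Ccnd2, 0.37 for Cdk6, -0.05 for Ccne2, -0.08 for Ccnd3, -0.13 for Cdk4, and -0.19 for Cdkn1b.

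The difference between the genotypes in the tumor effect was tested directly, and none of the 10 genes was called. In edgeR no gene of 15182 (0%) passed the threshold for this difference, 556 had an unadjusted p under 0.05, and DESeq2 called 10. The widest differences were 1.37 for Cdk6 (95% confidence interval from -0.38 to 3.13) and -1.25 for Cdkn2a (from -4.53 to 2.02), given as p21+/Tert minus p21+/TertCi on the log2 scale. The others were 0.98 for Ccnd1, 0.34 for Ccne1, 0.30 for Ccne2, 0.22 for Cdk4, -0.12 for Cdkn1b, -0.21 for Ccnd3, -0.55 for Cdkn2b, and -0.72 for Ccnd2. The livers of the genotypes were also compared. Again none of the 10 genes was called (0% of all genes in edgeR, 756 genes at an unadjusted p under 0.05, 42 in DESeq2). Differences between livers, in the same direction, ran from -0.73 for Cdk6 to 0.45 for Ccnd2, with -0.72 for Cdkn2a, -0.34 for Ccne2, -0.25 for Ccnd1, -0.25 for Cdkn2b, -0.04 for Cdkn1b, 0.13 for Ccne1, 0.14 for Cdk4, and 0.33 for Ccnd3 between them. The intervals were wide for the scarce genes, from -2.71 to 2.21 for Cdkn2b, and narrower for Cdk4, from -0.35 to 0.62.

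Driver classes were compared in a model with the livers and 3 classes of tumors. Both Ctnnb1-mutated tumors came from p21+/Tert mice, whereas each other class held 1 tumor of each genotype. In the 2 Ctnnb1-mutated tumors against the other 4, Cdkn2b was called lower and no other G1 gene was called, where 6.76% of 15182 genes were called higher and 5.73% lower. T-HCC662 and T-HCC663 had 2.67 and 1.73 CPM, below the lowest other tumor at 5.45 CPM. This gave a log2 fold change of -3.07 ± 0.61 (edgeR, adjusted p = 0.011). With a block for the mouse, in which each tumor counts by its difference from its own liver, it was -3.02 with an adjusted p of 0.079 and was not called, and with T-HCC662 or T-HCC663 left out the adjusted p was 0.0644 or 0.0795.

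Cdkn2a and Ccnd2 were likewise lowest in T-HCC662 and T-HCC663 among the tumors. Their log2 fold changes were -2.84 ± 0.94 (edgeR, adjusted p = 0.0684) and -1.53 ± 0.69 (edgeR, adjusted p = 0.16). For Ccne1 the value was -2.00 ± 0.70 (edgeR, adjusted p = 0.0794), and TCi-HCA984, at 2.81 CPM, lay between T-HCC662 and T-HCC663. DESeq2 called Ccne1 and Cdkn2a along with Cdkn2b. In edgeR with 1 tumor left out, Cdkn2a was called in 1 of 6 fits (without T-HCC941), with an adjusted p from 0.0428 to 0.311, and Ccne1 in 1 of 6 (without TCi-HCA984), with an adjusted p from 0.0362 to 0.339. The value of Ccne1 was -1.17 without T-HCA992, and with a block for the mouse the adjusted p was 0.252 for Cdkn2a and 0.257 for Ccne1. Ccnd1 did not separate the classes, with 102 and 124 CPM in the Ctnnb1-mutated tumors and 51.1 to 131 CPM in the others (log2 fold change 0.45, 95% confidence interval from -0.56 to 1.46). For Ccnd3, Cdkn1b, Cdk6, and Ccne2 the values were 0.17, -0.06, -0.24, and -0.25, and for Cdk4 4.84e-05.

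Summed levels of markers of several cell types lay lower in the Ctnnb1-mutated tumors, a comparison in which 5.73% of all genes tested were called lower. The 6 stellate cell and fibroblast markers summed to 29.0 and 72.0 CPM in T-HCC662 and T-HCC663 and to 141 to 357 CPM in the other tumors, all detected, and 1 of the 6 was called lower. The 6 endothelial markers summed to 50.2 and 94.8 CPM against 133 to 256 CPM, with 2 called lower. Hepatocyte markers summed to 31841 and 15809 CPM against 67701 to 93990 CPM, with 3 of 8 called lower, and 1 of 5 bile duct markers tested was called lower. The part of these cell types in the Cdkn2b, Cdkn2a, and Ccnd2 values was not tested. The copy number loss over Cdkn2a and Cdkn2b reported by the study lay in T-HCC662 of the Ctnnb1-mutated tumors and in TCi-HCC981 of the others. Its part in the Cdkn2b and Cdkn2a values was not tested either.

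**Figure D4:**
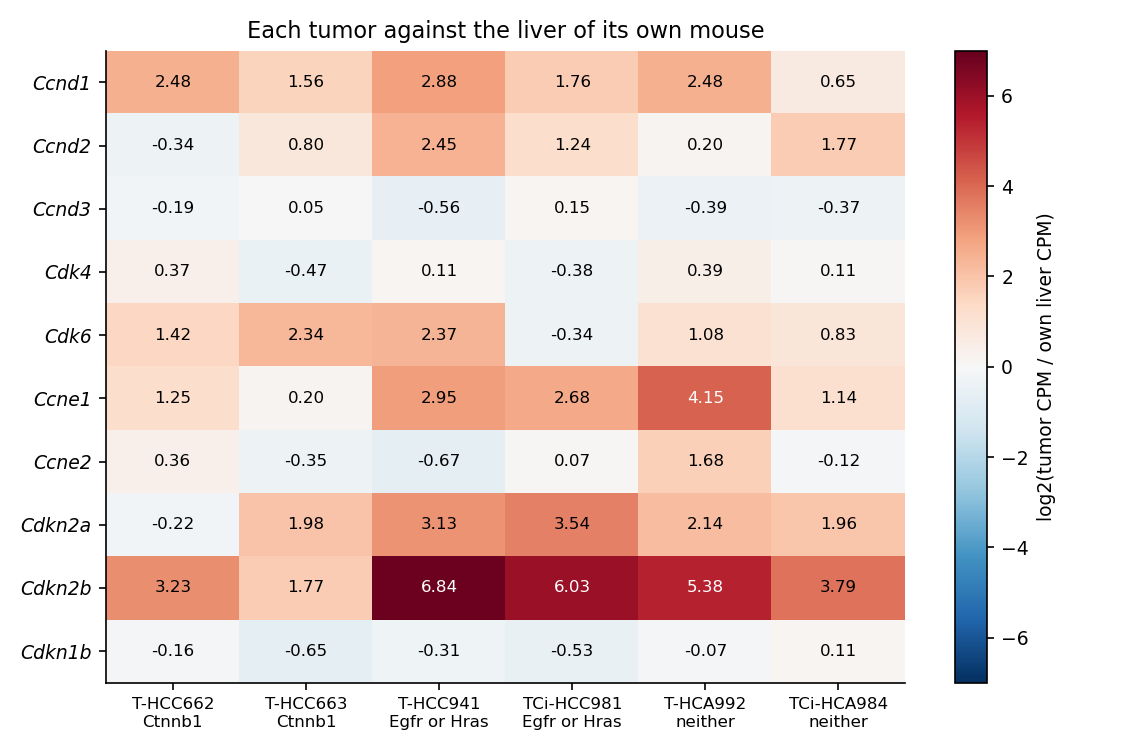
Log2 ratio of the CPM in each tumor to the CPM in the liver of the same mouse for the 10 G1 genes, with tumors ordered by driver class (Ctnnb1, Egfr or Hras, and neither), red above 0 and blue below. Each cell is 1 tumor without replicates. Cdkn2b has the highest ratio in 5 tumors, up to 6.84 in T-HCC941, and Cdk6 in T-HCC663 (2.34), while Ccnd3, Cdk4, and Cdkn1b stay between -0.65 and 0.39.

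Between the tumors with an Egfr or Hras mutation (T-HCC941 and TCi-HCC981) and those with neither driver (T-HCA992 and TCi-HCA984), none of the 10 genes was called. The former are carcinomas and the latter adenomas in the study's histology, so driver and histology cannot be told apart in this comparison. The study also reports MAPK pathway activation in the RNA of T-HCA992, for which it lists no canonical RAS pathway mutation. These classes thus divide the tumors by mutation and not by MAPK activity. No gene of 15182 (0%) was called in edgeR, 1331 had an unadjusted p under 0.05, and DESeq2 called 105. Cdkn1b had 22.6 and 23.2 CPM in the former and 30.6 and 35.7 CPM in the latter, a log2 fold change of -0.54 ± 0.20 with an unadjusted p of 0.0198 and an adjusted p of 0.53. The other log2 fold changes were 1.64 for Cdkn2a, 0.86 for Cdkn2b, 0.47 for Ccnd3, 0.18 for Ccne1, 0.15 for Cdk6, 0.07 for Ccnd2, -0.26 for Ccnd1, -0.38 for Cdk4, and -0.78 for Ccne2. The 2 tumors with neither driver differed from each other in several G1 genes. T-HCA992 had 131 CPM of Ccnd1, 15.1 CPM of Ccne1, and 22.1 CPM of Cdkn2b, against 51.1, 2.81, and 5.45 CPM in TCi-HCA984.

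In tumors against livers, 6.77% of 13822 genes tested were called higher and 3.91% lower. Of 27 other regulators of G1 and S phase entry, listed with earlier results of these data known, 5 were called higher and 1 lower. The median of the 27 was 0.14 on the log2 scale. The higher genes were Cdkn2c, a further INK4 inhibitor (2.08 ± 0.27 on the log2 scale, edgeR adjusted p = 0.00101), the pocket protein gene Rbl1 (1.72), the Skp2 ubiquitin ligase gene that targets p27 (1.27), the phosphatase gene Cdc25a (1.07), and Fbxw7 (0.70), whose product targets cyclin E for degradation. E2f7, a repressor of E2F targets, was lower (-1.75 ± 0.51 on the log2 scale, edgeR adjusted p = 0.0443). Cdkn2c had 3.00 to 5.99 CPM in livers and 8.69 to 28.8 CPM in tumors without overlap, a separation found in 2.86% of the genes tested. Among the tumors it was lowest in TCi-HCC981, where Cdkn2a and Cdkn2b were highest, and highest in T-HCC663. Log2 fold changes were 0.14 for Cdk2, the partner of cyclin E, 0.09 for Rb1, which encodes the retinoblastoma protein, 0.81 for E2f1, and 0.13 for the p57 gene Cdkn1c, and none of these was called. None of the 27 was called between driver classes.

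Among 20 genes of S, G2, and M phase, 13 were called higher in tumors and none lower, against 6.77% and 3.91% of all genes tested. The median of the 20 was 2.10 on the log2 scale. The proliferation marker Mki67 had a log2 fold change of 3.08, Cdk1, the mitotic kinase, 2.83, Ccna2, the cyclin of S phase and G2, 1.37, and the replication clamp gene Pcna 0.36, the last not called. The summed level of the 20 genes was 59.6 to 105 CPM in livers, 65.4 CPM in TCi-HCA984, and 167 to 391 CPM in the other tumors. TCi-HCA984 was also the tumor with the lowest Ccnd1, 51.1 CPM. T-HCC662 and T-HCC663, with 317 and 312 CPM of these genes, had the lowest Cdkn2b and Cdkn2a of all tumors. The order did not hold across the tumors. T-HCA992, with the highest sum at 391 CPM, had 22.1 CPM of Cdkn2b and 5.40 CPM of Cdkn2a. TCi-HCA984, with the lowest sum, had 5.45 CPM of Cdkn2b and 1.72 CPM of Cdkn2a.

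Where genes overlap on the other strand, reads may enter some of these counts or be left out of them. The protocol given does not mark the strand of a transcript, and the setting for reads on overlapping genes is not given. Overlap was taken over whole gene spans rather than exons. A counted gene on the opposite strand overlaps Ccnd2 (an antisense RNA), Ccnd3 (Bysl), Cdk4 (Tspan31), and Ccne2 (Ints8). Genes whose annotated symbols are not among those counted overlap Ccnd1 and Cdk6, and no annotated gene overlaps Ccne1, Cdkn2a, Cdkn2b, or Cdkn1b.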

How the data were processed

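Poly(A) RNA of 6 tumors and 6 livers was mapped by the authors onto the mouse genome mm10, extended by mCherry, using Subread, and reads were assigned to genes by featureCounts 1.6.4. The deposited values are raw read counts per gene symbol, with 1 file per library, 14571716 to 26170661 reads in each, and no identical pair. The annotation and strand setting are not given in the sources used here. Groups were taken from the labels and driver classes from the study. The liver labelled with an unlisted animal number (NT662) was paired with T-HCC662 by elimination, and its counts equal a constant times that mouse's column in the study's table for 730 of 730 genes within 0.1%.

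Counts were tested with edgeR 4.0.16 in R 4.3.3 (TMM, filterByExpr, quasi-likelihood F test, Benjamini-Hochberg over all genes tested, threshold 0.05). SE is the log2 fold change divided by the square root of F. Tumors against livers used 2 groups, and the other comparisons all 12 libraries in 4 groups, which shared 1 estimate of the spread. CPM are counts per 1000000 of TMM-scaled reads, with exon lengths from GENCODE on GRCm38. Tumor and liver of 1 mouse are paired by the animal. Over 13822 genes, their deviations from group means correlated with r of 0.443 for T-HCA992, 0.191 for T-HCC662, 0.0447 for T-HCC663, and 0.04 for T-HCC941, and of 0.548 for the 2 p21+/TertCi mice, which with 2 mice per group is a single value. For T-HCC663 and T-HCC941 the own liver was not the one with the highest r. Alternatives were DESeq2 1.42.0, RLE size factors, no filter on low counts, the mouse as a replicate block, each library left out, and, chosen after seeing the data, NT981 and TCi-HCC981 both left out. The study's term for sequencing run was not used, since the labels do not give the run. The fits were tested on simulated data.

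The 10 genes, the lists, and the markers were chosen with earlier results of these data known. By the rule for naming, all 10 genes are named in each comparison, and in tumors against livers also Cdk2, Cdkn1a, Rb1, E2f1, Cdkn1c, and Cdkn2c, any other listed regulator called in tumors against livers or between driver classes, Mki67, Ccna2, Cdk1, Pcna, and Tert. Of the marker lists, 0 of 6 T cell, 0 of 5 bile duct, 0 of 3 B cell, 0 of 6 macrophage, and 0 of 6 stellate cell and fibroblast genes tested were called in tumors against livers. In that comparison 1 of 6 endothelial genes was called higher and 2 of 8 hepatocyte genes lower. The T cell markers summed to at most 28.7 CPM and the bile duct markers to at most 1070 CPM (T-HCA992). At 0 counts were Krt7, Krt19, and Cftr in TCi-HCC981, Cftr in NT941 and NT984, Cd3e in NT941, Ms4a1 in NT984, T-HCC663, and TCi-HCA984, Pax5 in T-HCC941 and TCi-HCA984, and, of the S, G2, and M phase genes, Ccnb1 in NT662 and NT984.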

Additional observations from a re-analysis of the deposited data

Results flagged for a closer look

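In groups of 4 to 6 libraries, 6 of 40 tests of a G1 gene in a group set 1 library apart from the rest by Dixon's criterion at its 95% level. The groups of p21+/Tert livers and tumors lie within those of all livers and all tumors, so 1 library can be flagged in both. CPM were used without a log scale, and the number of flags cannot be set against a chance rate. NT992 had 12.4 CPM of Ccnd2, against at most 5.19 CPM in the other 5 livers, and stood apart both among all livers and among the p21+/Tert livers. NT941 had 73.1 CPM of Ccnd3, against at most 52.3 CPM in the others, in both groupings as well. NT663 had 48.7 CPM of Cdk4, against at most 41.5 CPM in the other livers, barely past the criterion. TCi-HCC981 had 19.1 CPM of Cdkn2a, against at most 5.40 CPM in the other tumors.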

How the results depend on the processing

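Of 280 log2 fold changes of the 10 genes under alternatives that leave out no single library, 264 kept their direction and their side of the threshold. DESeq2 called 2407 genes in tumors against livers, 2109 in p21+/Tert mice, 375 in p21+/TertCi mice, 3111 between Ctnnb1-mutated and other tumors, 105 between tumors with an Egfr or Hras mutation and with neither, 42 between livers, and 10 for the difference between genotypes. Of the 10 genes it called 4 in p21+/Tert mice, 1 in p21+/TertCi mice, and 3 between Ctnnb1-mutated and other tumors. In p21+/TertCi mice, RLE size factors gave 1 called gene and no filter gave 2. With the mouse as a replicate block, 441 genes and 0 of the 10 were called between Ctnnb1-mutated and other tumors, and apart from Cdkn2b there and Cdk6 in p21+/Tert mice the block changed no call of the 10 genes. The block could not be fitted between livers, which share no mouse. In the Ctnnb1 comparison Cdk4 was 4.84e-05 and became -0.00687 in DESeq2, -0.00658 with RLE size factors, and -0.10 with the block, and Cdk6 was -0.24 and became 0.87 with the block. Ccnd1 was -0.26 and became 0.73 with the block between tumors with an Egfr or Hras mutation and with neither. The cause was not tested.

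With 1 library left out, the number of genes called ranged from 863 to 1988 in tumors against livers, from 240 to 1192 in p21+/Tert mice, from 0 to 7 in p21+/TertCi mice, from 437 to 1653 in the Ctnnb1 comparison, and from 0 to 5 between the other tumor classes. Of the 10 genes, 0 to 3 were called in p21+/Tert mice and 0 to 2 in the Ctnnb1 comparison. The fewest calls came without NT662 in tumors against livers and in p21+/Tert mice, and without T-HCC662 in the Ctnnb1 comparison. The sign changed in 36 of 520 such values, none past the threshold. The log2 fold changes in tumors against livers then ranged over Cdk4 -0.0376 to 0.131, Ccne2 -0.0262 to 0.255. Those in p21+/Tert mice ranged over Ccne2 -0.0654 to 0.42. Those in p21+/TertCi mice ranged over Ccnd3 -0.44 to 0.20, Cdk4 -0.43 to 0.12, Cdk6 -0.39 to 0.86, Ccne2 -0.28 to 0.22, Cdkn1b -0.55 to 0.10. Values for the difference between genotypes covered Ccnd2 -1.31 to 0.13, Ccnd3 -0.49 to 0.15, Cdk4 -0.0247 to 0.53, Ccne1 -0.25 to 1.35, Ccne2 -0.0167 to 0.53, Cdkn2a -2.48 to 1.33, Cdkn2b -1.32 to 1.26, Cdkn1b -0.40 to 0.24. Values between livers covered Ccnd1 -0.696 to 0.0131, Ccnd2 -0.41 to 1.04, Ccne1 -0.35 to 0.36, Cdkn2a -1.37 to 0.50, Cdkn1b -0.125 to 0.0231. Values in the Ctnnb1 comparison covered Cdk4 -0.26 to 0.22, Cdk6 -0.58 to 0.45, Cdkn1b -0.195 to 0.0677. Log2 fold changes between the other tumor classes lay within Ccnd1 -0.79 to 0.55, Ccnd2 -0.24 to 0.46, Cdk6 -1.22 to 0.83, Ccne1 -0.57 to 1.84, Cdkn2a -0.10 to 2.68. Genes with few reads, such as Cdkn2b at 2 to 12 reads per liver, carry wide intervals at this depth.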
